A study of Mus musculus with 15 samples.

Results

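Mouse neural progenitor cells that had received the hairpin plasmid shLINE_Orf2 were compared with cells that had received the control hairpin shControl, over all genes. The comparison uses 6 of the 15 libraries of the series, 3 for each hairpin, which were assigned by their sample titles. Transcript counts were summed to 34989 genes, and the 15147 genes that passed a filter on low counts were tested. The cells of both groups are labelled wild type, were cultured with FGF2, EGF and heparin, carry EGFP from the hairpin plasmid, and were sorted as GFP-positive 3 days after neurofection. Total RNA was isolated with TRIZOL, and the labels name a method written SMRT-seq2 for the libraries. Cells with 2 other hairpins, shLINE_Orf1 and shLINE_MdV_I, were prepared in the same way with 3 libraries each and are used for direct comparisons with shLINE_Orf2.

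LINE-1 elements are retrotransposons, genomic repeats that spread by way of an RNA copy. A full-length element encodes an RNA-binding protein in its first reading frame, ORF1, and a protein with endonuclease and reverse transcriptase activity in the other, ORF2. A short hairpin RNA is cut in the cell to a small RNA that directs the destruction of RNAs with a matching sequence. The design text speaks of hairpins against young and against old LINE-1, and the labels do not say to which of these shLINE_Orf2 belongs. The hairpin sequence and the RNA of the LINE-1 elements themselves were not analysed here, so the knockdown was not measured in any library and the labels have no check from the target. Where a transcript was lower, fewer cells that express it and less of it per cell cannot be told apart in such bulk RNA.

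The 6 libraries held between 45102582 and 49356305 gene counts. The labels do not say that replicates are separate cultures, so every p-value here rests on a spread among libraries that may be technical. Every pair of replicates differed by more than counting noise, the chi-square divided by its degrees of freedom being 15.6 to 35.8 among the shLINE_Orf2 libraries and 42.9 to 137 among those of shControl. shControl replicate 2 stood apart from the other 5 on the first principal component of log2 expression, at 24.3 against -11.6 to 0.35. In that library the shortest class of genes by exonic length (231 to 2330 bases) had a median of 0.24 above the shControl mean (log2) and the longest class (7494 bases and more) one of -0.19. shControl replicate 1 had the opposite trend, with -0.17 and 0.14, while the shLINE_Orf2 libraries lay between -0.05 and 0.05 in both. Several markers of neural progenitors were high in both groups. Fabp7 stood at 3672 ± 878 CPM in shControl and 3506 ± 411 CPM in shLINE_Orf2 (SD, n = 3). CPM is the count scaled to the size of the library. Sox2 stood at 203 ± 17 and 198 ± 3.1 CPM, and Nes at 363 ± 39 and 285 ± 13 CPM. Others on the list were lower, such as Pax6 at 18.6 and 19.6 CPM and Prom1 at 4.94 and 4.31 CPM. Some markers listed for other lineages were also high: Olig1 averaged 2290 and 2153 CPM, Apoe 459 and 291 CPM, and Map2 400 and 381 CPM. Other members of these lists were low, such as Mbp at 1.63 and 1.84 CPM, Gfap at 3.50 and 5.01 CPM, and Dcx at 6.06 and 6.10 CPM. The 11 microglial markers summed to 2.23 to 3.02 CPM in shControl and 1.77 to 2.28 CPM in shLINE_Orf2, and Aif1, C1qa, C1qb and C1qc had no count. Of the 8 endothelial markers, which summed to 23.1 to 47.2 and 31.0 to 34.3 CPM, Pecam1 held nearly all and Cdh5 was at 0.

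With shLINE_Orf2, 29 genes changed, 12 upward and 17 downward, which is 0.191% of the 15147 genes tested (0.0792% upward and 0.112% downward). A gene is called changed where the quasi-likelihood test of edgeR gave a Benjamini-Hochberg adjusted p under 0.05 over all genes tested, and each log2 fold change below is shLINE_Orf2 minus shControl with its standard error. Where no other tool is named, called or not called refers to that test. The genes that rose include the chaperone Cryab, the RNA-sensing adaptor Mavs and the prolyl hydroxylase P4ha2. Those that fell include the histones Hist1h1c and Hist1h2bc, the actin-severing protein Gsn and the bridging proteins Gas6 and Mfge8. The changes called lay between 0.44 and 2.83 in size on the log2 scale. The median over all genes was -0.01, and 47.7% of them were positive. At an unadjusted p under 0.05 there were 1060 genes, or 7% of those tested (3.78% higher and 3.22% lower).

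**Figure D1:**
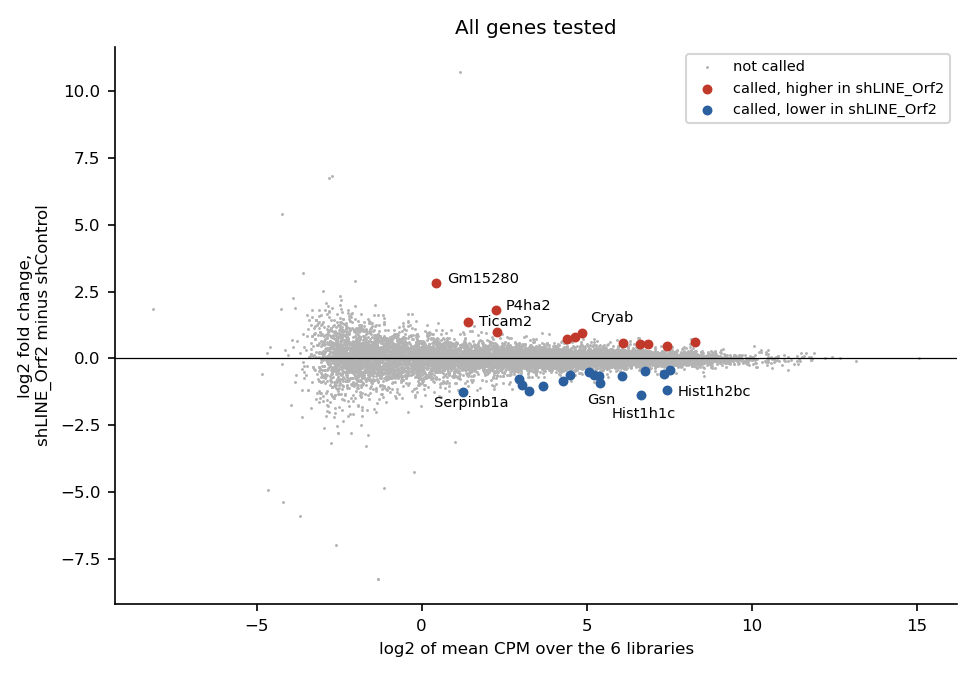
Log2 fold change (shLINE_Orf2 minus shControl) against the log2 of mean CPM over the 6 libraries, 1 point per gene tested (a gene with no count in these libraries is not drawn). The 12 higher genes called are red and the 17 lower ones blue; most lie close to the cloud of genes not called, and the far points at low CPM are genes with counts in some libraries only.

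In all 29 genes every shLINE_Orf2 library lay beyond every shControl library, which was so for 6.91% of all genes upward and 5.11% downward. The 29 were selected by a test on these same libraries, so this separation follows largely from the selection and is no separate support. DESeq2 and limma-voom called all 29 as well, among 176 and 383 genes. With only the 2 groups in the fit, 4 genes were called: Cryab, Gm15280, Hist1h1c and Gsn. The first 3 of these were called under all 17 alternatives, Gsn under 16 and the others under 6 to 13. Leaving out 1 library of either group left 3 to 12 genes: 12, 9 and 5 without shControl replicates 1, 2 and 3, and 5, 3 and 11 without shLINE_Orf2 replicates 1, 2 and 3. The spread is shared by all 15 libraries, and without shLINE_Orf1 replicate 1, which stands apart and belongs to neither group, 119 genes were called. Without that library and shControl replicate 2 there were 272, 133 higher and 139 lower. The split also moved with the scaling, to 19 higher and 14 lower on plain library sizes and to 40 and 28 with a length trend taken out.

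**Figure D2:**
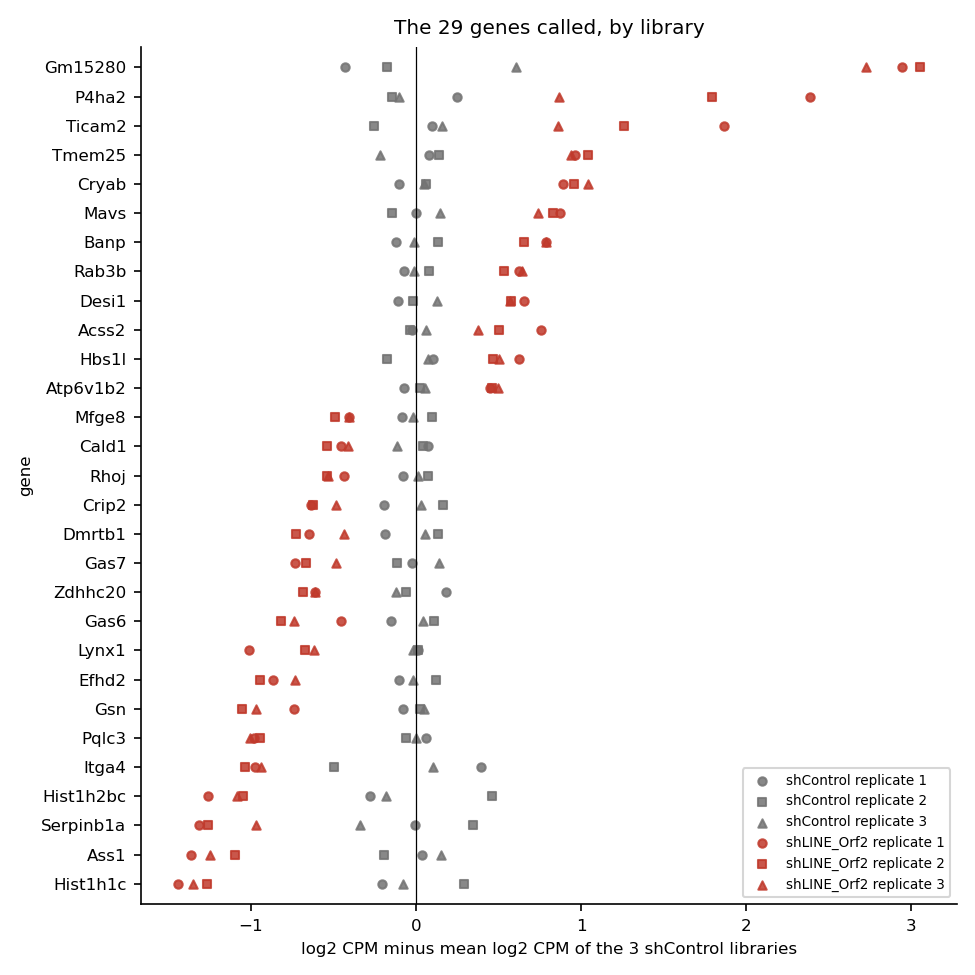
Log2 CPM of the 29 genes called in each of the 6 libraries, minus the mean of the 3 shControl libraries (grey, shControl; red, shLINE_Orf2; the marker shape is the replicate). The red and grey points do not overlap for any gene, and P4ha2 and Ticam2 have the widest spread among the shLINE_Orf2 libraries.

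Cryab encodes alpha B-crystallin, a small heat shock protein that keeps damaged proteins from aggregating. It lies on chromosome 9 (50751325 to 50756636, plus strand, GRCm38). Its level was 18.3, 20.5 and 20.3 CPM in the shControl libraries and 36.4, 38.2 and 40.6 CPM in those of shLINE_Orf2. The groups are far apart and each is narrow, and the rise was 0.96 ± 0.11 on the log2 scale (adjusted p = 0.0041). Its exons share 252 bases with Hspb2 on the opposite strand, and Hspb2 itself averaged 0.211 CPM over these libraries. The counting is not stated to use strand, so reads of that stretch cannot be assigned to either gene. The most used transcript, Cryab-205, held 45.9 ± 5.0% of the gene's counts in shControl and 52.5 ± 3.7% in shLINE_Orf2.

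Cryab was the only gene called among the 31 tested members of the heat shock list, of which 19 were positive, with a median of 0.03. Hspd1, the mitochondrial chaperonin, stood at 0.13 ± 0.08 (adjusted p = 0.89), and the small heat shock gene Hspb8 at -0.31 ± 0.18 (adjusted p = 0.88). Hsf1, the transcription factor that drives the heat shock response, stood at 0.17 ± 0.12.

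Hist1h1c encodes the linker histone H1.2, which binds DNA where it enters and leaves the nucleosome. The gene lies on chromosome 13 (23738808 to 23740367, plus strand), in a cluster with Hist1h2bc, a gene for the core histone H2B (23684199 to 23692908). The 250 bases before the start of Hist1h1c, as RefSeq gives it on GRCm38.p6 (chr13:23738557-23738806, plus strand), are shown because this gene had the largest fall of those called. The capitals mark a CCAAT box, an element common in histone promoters.
Hist1h1c: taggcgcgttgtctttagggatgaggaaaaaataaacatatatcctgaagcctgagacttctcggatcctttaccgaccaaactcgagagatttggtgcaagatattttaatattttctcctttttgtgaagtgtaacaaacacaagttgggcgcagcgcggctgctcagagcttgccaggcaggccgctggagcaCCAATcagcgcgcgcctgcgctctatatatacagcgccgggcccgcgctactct

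The box starts 54 bases before the start site. CCAAT on either strand is found in this window in 42 of the 52 core histone promoters that could be matched (80.8%) and in 33.8% of all 32851 promoters. It is found in 5 of 7 linker histone promoters (71.4%) and in 33 of 43 promoters of genes of G2 and mitosis (76.7%). Among the genes called, it is found in 6 of 20 matched promoters (30%). Hist1h1c fell from 124, 175 and 136 CPM to 52.9, 59.8 and 56.2 CPM, by 1.37 ± 0.17 on the log2 scale (adjusted p = 0.0041). Every shLINE_Orf2 library lay far below every shControl library, and the call held without shControl replicate 2, the highest of the 6. Hist1h2bc fell from 194, 323 and 207 CPM to 98.1, 114 and 111 CPM, by 1.17 ± 0.20 (adjusted p = 0.033). Its sequence is at least 95% identical over at least 200 bases to other H2B genes, such as Hist1h2br (99.5%), so the split of reads between copies is uncertain, and its call ended without shControl replicate 2 or 3 or any shLINE_Orf2 library.

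No other core histone gene passed edgeR's test, while DESeq2 called 3 and limma-voom 5, all lower, with Hist3h2a and Hist2h3c1 among them in both. Over all genes, DESeq2 called 86 lower and limma-voom 187. Of 57 core histone genes tested, 51 were negative and 15 had every shLINE_Orf2 library below every shControl library (5.11% of all genes), with a median of -0.39. The H2B genes similar to Hist1h2bc averaged only 0.081 CPM (Hist1h2bl) to 2.72 CPM (Hist1h2be) over the 6 libraries. Part of the list therefore rests on few counts. Hist3h2a, an H2A gene, stood at 49.7, 76.6 and 59.9 CPM in shControl and 36.6, 38.5 and 41.3 CPM in shLINE_Orf2 (-0.68 ± 0.14, adjusted p = 0.064). Hist2h3c1, an H3 gene, stood at -0.92 ± 0.23 (adjusted p = 0.15). Over the list, the mean log2 level relative to the shControl mean was -0.41, 0.40 and 0.01 in the shControl libraries and -0.51, -0.28 and -0.30 in those of shLINE_Orf2. The list therefore spans as wide a range within shControl as between the groups, and without shControl replicate 2 the split was 26 positive and 31 negative, with a median of -0.25. Among the 7 linker histones Hist1h1c was the only one called, and H1f0, a linker histone made outside S phase, stood at -0.05 ± 0.09.

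Genes of the actin cytoskeleton and of adhesion were among those that fell. Gelsolin, the product of Gsn (chromosome 2, 35256380 to 35307892), severs and caps actin filaments. Gsn fell from 52.6, 56.4 and 57.4 CPM to 33.3, 26.6 and 28.3 CPM (-0.92 ± 0.12, adjusted p = 0.0075). Efhd2, a calcium-binding protein of actin filaments, fell from 23.1, 27.0 and 24.5 CPM to 13.6, 12.9 and 14.9 CPM (-0.85 ± 0.15). Both shifts leave a clear gap between the groups. Cald1, which encodes caldesmon, a regulator of actin and myosin, fell by 0.47 ± 0.09. The LIM domain gene Crip2 fell by 0.59 ± 0.10. Of the 27 genes in the list of actin-severing and contractile proteins, 2 were called, both lower, and 16 were positive, so the list as a whole had a median of 0.01. Tagln2 and Myl9, members that bind actin or myosin, stood at 0.34 ± 0.09 (adjusted p = 0.24) and 0.29 ± 0.12.

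Itga4, the integrin alpha 4 chain that pairs with beta 1 to bind fibronectin and VCAM1, fell from 21.9, 11.8 and 17.9 CPM to 8.48, 8.12 and 8.68 CPM (-1.03 ± 0.18, adjusted p = 0.033). The shControl libraries were spread and the shLINE_Orf2 libraries were nearly equal. It was the only member called of 25 integrin and laminin genes tested, of which 12 were positive (median -0.02). The median was -0.15 with 7 positive without shControl replicate 2, and 0.09 with 15 positive without replicate 1. Itga1 stood at -0.55 ± 0.20 and Itgb8 at 0.44 ± 0.15, neither called by edgeR or DESeq2 and both by limma-voom.

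Gas6 and Mfge8 are secreted proteins that bind phosphatidylserine on dying cells and hold them to receptors of the eating cell, Gas6 to Tyro3, Axl and Mertk (the TAM receptors) and Mfge8 to alpha v integrins. Gas6 fell from 46.0, 55.2 and 52.8 CPM to 37.4, 29.04 and 30.6 CPM (-0.67 ± 0.11, adjusted p = 0.033). Mfge8 fell from 202, 228 and 211 CPM to 161, 152 and 161 CPM (-0.44 ± 0.08, adjusted p = 0.033). These were the 2 members called of the 8 in the list. The receptors were not called: Axl stood at -0.01 ± 0.13, Mertk at 0.12 ± 0.14 and Tyro3 at -0.02 ± 0.11. Pros1, the other soluble ligand of these receptors, stood at -0.13 ± 0.12.

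Mavs, on chromosome 2 (131234063 to 131248025), encodes the mitochondrial adaptor through which the RNA helicases RIG-I and MDA5 signal to interferon genes. It rose from 18.2, 16.5 and 20.2 CPM to 33.4, 32.5 and 30.5 CPM (0.81 ± 0.13, adjusted p = 0.033), with the 3 libraries of each group close together. Ticam2, an adaptor of Toll-like receptor 4, rose from 1.57, 1.23 and 1.64 CPM to 5.34, 3.52 and 2.66 CPM (1.37 ± 0.23, adjusted p = 0.033). Ticam2 shares 838 exonic bases on the same strand with Tmed7, a cargo receptor gene that averaged 244 CPM, so its counts depend on how reads of that stretch were divided.

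Mavs was the only gene called among 25 sensors of nucleic acids and their adaptors (13 positive, median 0.0018). Among the others, the interferon-inducing transcription factor Irf3 stood at 0.11 ± 0.11, the endosomal RNA receptor Tlr3 at 0.45 ± 0.23 and the adaptor Traf3 at 0.33 ± 0.22. None of 54 interferon-stimulated genes was called by edgeR and 1 by DESeq2. At an unadjusted p under 0.05, 1 was higher and 5 were lower, against 3.78% and 3.22% of all genes. Of the 54, 20 were positive and the median was -0.03, or 0.06 without shControl replicate 1 and 0.02 without shLINE_Orf2 replicate 3. Tapbp, which loads peptides on MHC class I, stood at 0.51 ± 0.12 (adjusted p = 0.15), and the antiviral gene Oas1a at -0.63 ± 0.22 (adjusted p = 0.44). None of 54 genes of LINE-1 restriction and heterochromatin was called by edgeR, DESeq2 or limma-voom (23 positive, median -0.03), and at an unadjusted p under 0.05 there was 1 in each direction. The demethylase Tet1 stood at 0.38 ± 0.14 and the RNA helicase Mov10 at 0.44 ± 0.22, with adjusted p = 0.48 and 0.75.

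P4ha2 encodes a catalytic subunit of prolyl 4-hydroxylase, the enzyme that hydroxylates proline in collagen, and is a known target of hypoxia-inducible factors. These factors are stabilised when oxygen is low and bind a core ACGTG. P4ha2 (chromosome 11, 54100095 to 54131665) rose from 2.49, 1.90 and 1.95 CPM to 10.97, 7.26 and 3.82 CPM (1.79 ± 0.32, adjusted p = 0.033). Replicate 1 was the highest and replicate 3 the lowest of the shLINE_Orf2 libraries, the latter still above every shControl library. The 250 bases upstream of its RefSeq start (GRCm38.p6, chr11:54100674-54100923, plus strand) are printed because this gene had the largest rise of the protein-coding genes called, with ACGTG in capitals.
P4ha2: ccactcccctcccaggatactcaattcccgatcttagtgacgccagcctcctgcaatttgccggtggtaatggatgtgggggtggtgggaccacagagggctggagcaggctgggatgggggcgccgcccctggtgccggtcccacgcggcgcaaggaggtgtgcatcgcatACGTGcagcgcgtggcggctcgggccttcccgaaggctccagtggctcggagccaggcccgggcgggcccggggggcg

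The match begins 78 bases before the start. ACGTG, searched on both strands, is present in this window in 11 of 25 matched promoters of the list of hypoxia-inducible factor targets outside glycolysis, in 11 of 25 of the glycolysis list (44% each) and in 16.6% of all promoters. Of the 30 targets outside glycolysis 28 were positive, P4ha2 was the only one called by edgeR, and the median was 0.33. DESeq2 called Narf as well, and limma-voom Narf and Ndrg1. At an unadjusted p under 0.05, 12 of the 30 were higher, against 3.78% of all genes. Narf stood at 31.4, 26.7 and 29.9 CPM in shControl and 50.6, 50.2 and 33.2 CPM in shLINE_Orf2 (0.61 ± 0.15, adjusted p = 0.15). P4ha1, the paralog of P4ha2, stood at 102, 99.6 and 99.7 CPM against 182, 146 and 98.6 CPM (0.50 ± 0.16, adjusted p = 0.35). In P4ha1 the third shLINE_Orf2 library is at the level of shControl.

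None of the 26 glycolysis genes was called by edgeR and 1 by DESeq2, 25 were positive, and the median was 0.24. At an unadjusted p under 0.05, 7 were higher, against 3.78% of all genes. Slc2a1, the main glucose transporter, stood at 71.1, 66.1 and 75.4 CPM against 173, 113 and 71.7 CPM (0.75 ± 0.22, adjusted p = 0.31). Pdk1, a kinase that keeps pyruvate out of mitochondria, stood at 79.4, 62.5 and 73.0 CPM against 167, 126 and 71.9 CPM (0.77 ± 0.22, adjusted p = 0.27). Both genes were high in shLINE_Orf2 replicates 1 and 2 and within the shControl range in replicate 3. Hk2, a hexokinase, stood at 0.91 ± 0.29 and Aldoc, an aldolase also used as an astrocyte marker, at 0.41 ± 0.10 (adjusted p = 0.34 and 0.13). The mean over the glycolysis genes was 0.59, 0.27 and -0.03 in shLINE_Orf2 replicates 1, 2 and 3 and that of the other targets 0.71, 0.35 and -0.02, while the shControl libraries lay between -0.04 and 0.04 in both. Without shLINE_Orf2 replicate 1 these lists' medians were 0.10 and 0.13. P4ha2 was no longer called without shLINE_Orf2 replicate 1 or 2 or without any 1 of the shControl libraries. Whether culture or sorting differed between these 3 libraries was not tested.

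**Figure D3:**
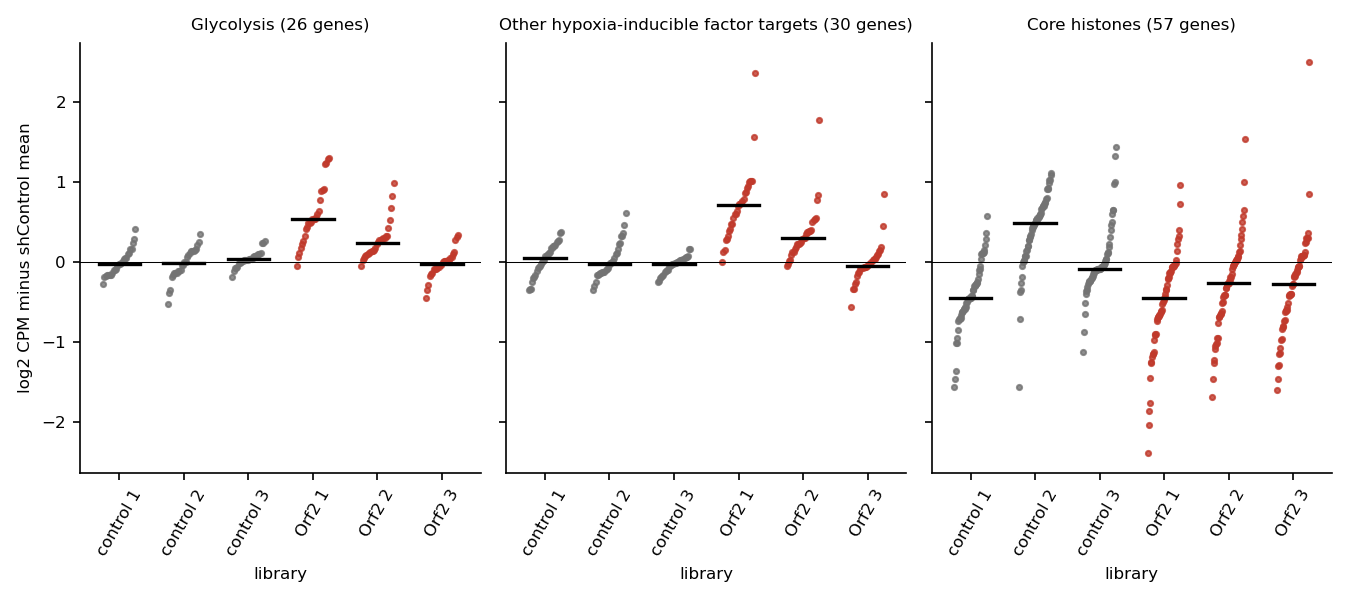
Log2 CPM of each tested gene minus the mean of the 3 shControl libraries, by library, for glycolysis (26 genes), other targets of hypoxia-inducible factors (30 genes) and core histones (57 genes); bars are medians. The first 2 lists lie above 0 in shLINE_Orf2 replicates 1 and 2 and at 0 in replicate 3, and core histones are lowest in shControl replicate 1 and the 3 shLINE_Orf2 libraries.

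Acss2 makes acetyl-CoA from acetate in the cytosol and nucleus and belongs to the genes that sterol regulatory element-binding proteins switch on. It rose from 91.8, 91.1 and 97.2 CPM to 158, 132 and 121 CPM (0.55 ± 0.10, adjusted p = 0.033), with a wider spread in shLINE_Orf2 than in shControl. Its RefSeq upstream sequence (GRCm38.p6, chr2:155517793-155518042, plus strand) is given because CCAAT, here in capitals as ATTGG on the reverse strand, is frequent in the promoters of this list.
Acss2: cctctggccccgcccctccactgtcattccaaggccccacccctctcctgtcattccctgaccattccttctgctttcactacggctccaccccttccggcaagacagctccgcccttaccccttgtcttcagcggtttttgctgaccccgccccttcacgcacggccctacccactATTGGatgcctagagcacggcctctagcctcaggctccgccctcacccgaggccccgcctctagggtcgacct

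CCAAT was found in 18 of 24 matched promoters of sterol and fatty acid synthesis genes (75%), against 33.8% of all. TCACNCCAC (N is any base), searched in the same way, was found in 1 of these 24 (4.17%), against 1.05% of all. It was found in 0 of the 20 matched promoters of the genes called. Of the 35 genes in this list 29 were positive, Acss2 was the only one called, and the median was 0.15. In 11 of them every shLINE_Orf2 library lay above every shControl library, as in 6.91% of all genes. Hmgcs1, the synthase at the entry to the mevalonate pathway, stood at 1242, 999 and 1083 CPM against 1277, 1386 and 1243 CPM (0.23 ± 0.10, adjusted p = 0.64). Dhcr7, the last enzyme of cholesterol synthesis, stood at 188, 160.0 and 216 CPM against 230 (229.7), 219.6 and 233 CPM (0.28 ± 0.11, adjusted p = 0.54). These differences are no larger than the range among the shControl libraries. Without shControl replicate 2 the list's median was 0.09.

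Rab3b, a GTPase of secretory vesicles, rose from 235, 262 and 245 CPM to 381, 358 and 385 CPM (0.60 ± 0.09, adjusted p = 0.017). It was the only one called of 27 genes of vesicle fusion, of which 17 were positive (median 0.03). At an unadjusted p under 0.05, 7 were higher and 0 lower, against 3.78% and 3.22% of all genes. The calcium-triggered fusion proteins Vamp2 and Snap25 stood at 0.32 ± 0.12 and 0.37 ± 0.15, neither called. Atp6v1b2, a subunit of the V-ATPase that acidifies vesicles and lysosomes, rose from 139, 149 and 152 CPM to 199.6, 201 and 207 CPM (0.47 ± 0.09, adjusted p = 0.035). The other 19 of the 20 subunits tested were not called, and the list had a median of -0.06, or 0.04 without shControl replicate 2. Among 30 lysosomal genes none was called by edgeR and 2 by DESeq2, with 2 in each direction at an unadjusted p under 0.05. Lamp1, a membrane protein of the lysosome, stood at 0.33 ± 0.08 (adjusted p = 0.12) and the protease gene Ctsd at -0.22 ± 0.10.

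The remaining genes that rose have diverse functions. Desi1, which encodes an isopeptidase that removes SUMO, rose from 50.3, 53.7 and 59.4 CPM to 85.5, 80.9 and 80.6 CPM (0.60 ± 0.09, adjusted p = 0.015). Its exons share 344 bases with Xrcc6 on the opposite strand, a DNA repair gene at 90.1 CPM on average, so the 2 cannot be fully separated without strand. Banp, a nuclear DNA-binding protein, rose by 0.74 ± 0.12, from 14.4, 17.2 and 15.6 CPM to 27.0, 24.7 and 27.0 CPM. Its transcripts shifted too: Banp-202 held 45.4 ± 2.0% of the gene's counts in shControl and 33.5 ± 1.8% in shLINE_Orf2 (SD, n = 3), a difference given without a test. Hbs1l, a factor that frees stalled ribosomes, rose by 0.53 ± 0.09, and Tmem25, a membrane protein with an immunoglobulin domain, by 0.97 ± 0.17. Hbs1l has the annotated pseudogene Gm9923 with 99.9% identity over 1836 bases, to which some of its reads could be assigned. Gm9923 itself averaged only 0.105 CPM over the 6 libraries.

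Of the remaining genes that fell, 3 act in metabolism or protease control. Ass1, argininosuccinate synthase, which makes the precursor of arginine, fell from 3.39, 2.89 and 3.68 CPM to 1.29, 1.55 and 1.39 CPM (-1.23 ± 0.21, adjusted p = 0.033). Its near-identical pseudogene Gm5424 (99.5% over 1240 bases) is listed at 0 in these libraries. Serpinb1a, an inhibitor of neutrophil serine proteases, fell from 13.1, 16.7 and 10.4 CPM to 5.30, 5.51 and 6.73 CPM (-1.20 ± 0.21). Its groups are separate although shControl is spread, and it was the only one called of 13 serpins tested (3 positive, median -0.13). Serpina3n, a serpin of reactive astrocytes, stood at -0.97 ± 0.24 (adjusted p = 0.15). Zdhhc20, a palmitoyl transferase, fell by 0.64 ± 0.12.

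Lynx1, a membrane-anchored modulator of nicotinic acetylcholine receptors, fell from 9.71, 9.70 and 9.50 CPM to 4.79, 6.05 and 6.27 CPM (-0.76 ± 0.14, adjusted p = 0.033). Pqlc3, a membrane protein with PQ loops, fell from 11.3, 10.4 and 10.9 CPM to 5.52, 5.65 and 5.42 CPM (-0.98 ± 0.16), and both groups are very tight. The transcription factor gene Dmrtb1 fell by 0.60 ± 0.11 and Gas7, a gene named for its induction in growth arrest, by 0.63 ± 0.11. In Lynx1 the same main transcript carried the level in both groups, Lynx1-201 holding 98.7 ± 1.0% and 99.1 ± 1.2% of its counts.

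The largest fold change called belonged to Gm15280, an unprocessed pseudogene on the X chromosome (31347183 to 31347822, minus strand), which is described after its values were seen. It stood at 0.24, 0.28 and 0.48 CPM in shControl and 2.45, 2.63 and 2.10 CPM in shLINE_Orf2 (2.83 ± 0.35, adjusted p = 0.0041). Its sequence is not its own: transcripts of 13 other genes hold a stretch of at least 150 bases that is at least 85% identical to it, 8 on the same strand and 5 on the opposite one, with up to 98.3% identity (Zfp972-202). Its counts therefore depend on how reads were divided among these copies. In none of the 7 such transcripts that have counts did every shLINE_Orf2 library lie above every shControl library. Eci2-214, for instance, was at 195, 98.0 and 97.1 counts against 92.2, 106 and 82.4, and Zfp972-202 at 7.04, 1 and 7.29 against 9, 4 and 3.04.

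Lists of growth control and signalling held no gene called by edgeR's test. Of 46 p53 targets, 33 were negative with a median of -0.13, and in 11 every shLINE_Orf2 library lay below every shControl library (5.11% of all genes). At an unadjusted p under 0.05, 11 were lower (3.22% of all genes) and 0 higher, and DESeq2 called 2 lower. Dcxr, a carbonyl reductase, stood at 39.6, 63.2 and 42.0 CPM against 25.8, 24.5 and 27.7 CPM (-0.89 ± 0.19, adjusted p = 0.089). Mdm2, the ligase that degrades p53, stood at 77.1, 58.3 and 72.4 CPM against 58.1, 53.4 and 52.1 CPM (-0.35 ± 0.11, adjusted p = 0.34), where 1 library of each group nearly touch. Without the 2 libraries that stand apart, 272 genes were called over all genes, 133 higher and 139 lower. Of the 46 p53 targets, 7 were called in that setting, all lower: Ei24, Plk2, Trp53inp1, Mdm2, Dcxr, Pmaip1 and Cd80. The libraries left out were singled out by these data. They include shControl replicate 2, the shControl library nearest to shLINE_Orf2 for Mdm2 (58.3 CPM), so these calls are no separate support.

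For the cell cycle, 44 of 50 genes of G2 and mitosis were positive (median 0.13) and 34 of 48 genes of G1/S and DNA replication were negative (median -0.09). Plk1, a mitotic kinase, stood at 194, 178 and 204 CPM against 247, 221 and 232 CPM (0.28 ± 0.10, adjusted p = 0.51). At an unadjusted p under 0.05 there were 10 higher genes of mitosis (3.78% of all genes) and 2 lower ones of replication (3.22%). DESeq2 called 0 in both lists. Of 71 genes of the nucleolus and ribosome biogenesis 60 were negative, with a median of -0.08, or -0.04 without shControl replicate 3, and 0 at an unadjusted p under 0.05. Sizes in these lists were small, within -0.32 and 0.35 for every member tested.

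Notch signalling keeps progenitors undifferentiated, and FGF and EGF drive their division. Of 20 Notch genes 14 were positive (median 0.10), and DESeq2 called 2, against 176 over all genes. At an unadjusted p under 0.05, 6 were higher, against 3.78% of all genes. The Notch targets Hey1 and Nrarp stood at 25.3, 26.8 and 23.3 CPM against 33.1, 35.7 and 32.3 CPM (0.43 ± 0.10, adjusted p = 0.11) and at 0.49 ± 0.12 (adjusted p = 0.15). Hes5, another target, stood at 22.4, 41.8 and 21.6 CPM against 36.8, 53.1 and 50.6 CPM, so that the groups overlap. Of 20 genes of FGF and EGF feedback 16 were negative (median -0.11), and DESeq2 called 1. At an unadjusted p under 0.05, 3 were lower and 1 higher, against 3.22% and 3.78% of all genes. Ccnd1, the cyclin D1 gene, stood at 2313, 2537 and 2648 CPM against 2013, 1771 and 1829 CPM (-0.42 ± 0.11, adjusted p = 0.23), and the ERK phosphatase Dusp6 at -0.37 ± 0.15. Without the 2 libraries that stand apart, 133 genes were called higher and 139 lower over all genes. Among them Hey1, Nrarp, Hes5 and Mfng were higher and Jag1 lower, and Ccnd1, Dusp6, Dusp4 and Egfr were lower. The libraries left out were singled out by these data. They include shControl replicate 2, whose Hes5 level (41.8 CPM) overlaps shLINE_Orf2, so these calls are no separate support.

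In lists of mitochondrial and ribosomal genes shControl replicate 2 lay above the other 5 libraries. Over 84 nuclear genes of oxidative phosphorylation the library means were -0.24, 0.40 and -0.15 in shControl and -0.04, -0.05 and 0.11 in shLINE_Orf2. None was called by edgeR or DESeq2, and 1 was lower at an unadjusted p under 0.05 (3.22% of all genes). Of the 84, 34 were positive with a median of -0.02, but without shControl replicate 2 the median was 0.21 and 83 were positive. The 82 cytosolic ribosomal protein genes had means of -0.36, 0.44 and -0.07 in shControl and -0.10, -0.08 and 0.12 in shLINE_Orf2, with a median of -0.07 (0.18 without shControl replicate 2) and none called by edgeR or DESeq2 or under an unadjusted p of 0.05.

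**Figure D4:**
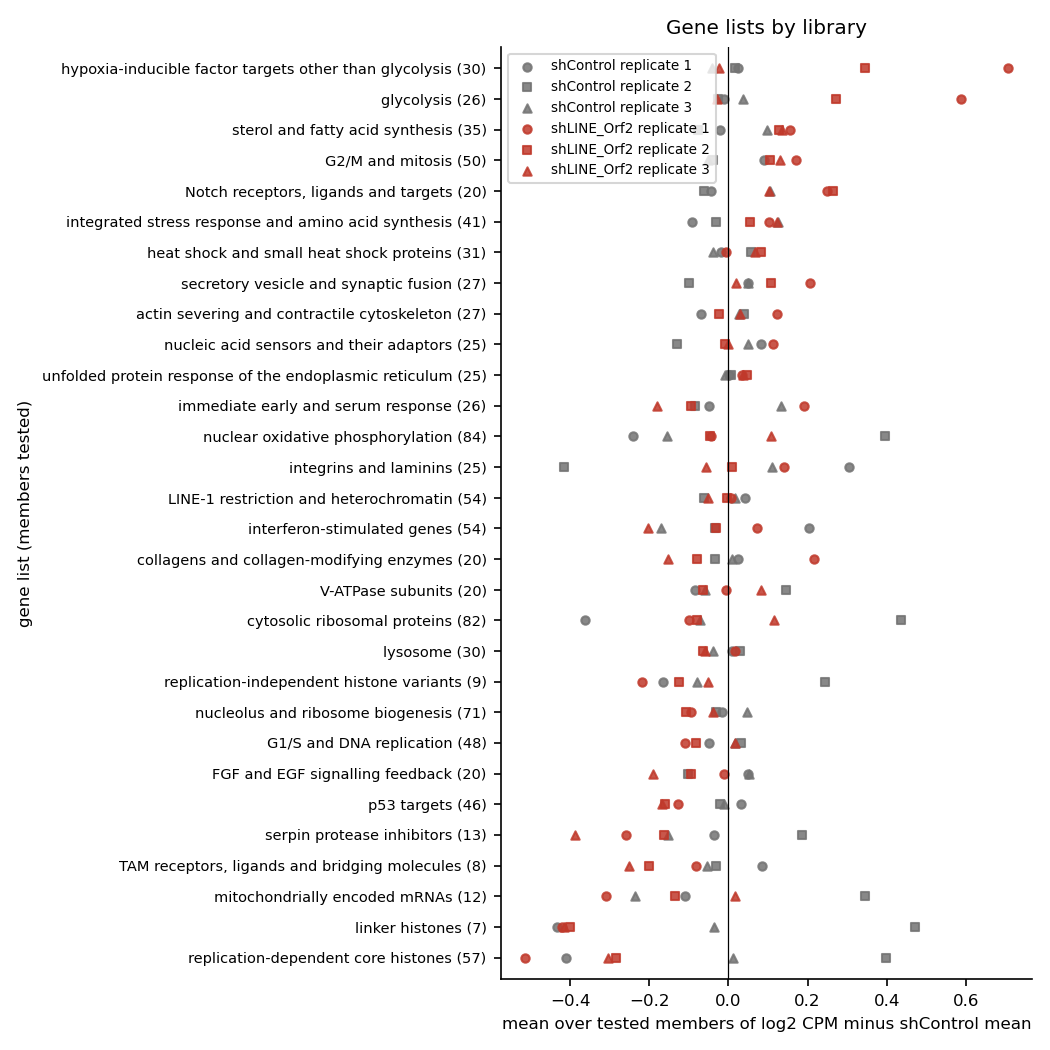
Mean over the tested members of each of 30 gene lists (number in brackets) of log2 CPM minus the shControl mean, in the 3 shControl (grey) and 3 shLINE_Orf2 (red) libraries, ordered by the list's median fold change. Targets of hypoxia-inducible factors and glycolysis reach 0.71 and 0.59 in shLINE_Orf2 replicate 1, their highest library, and histones, ribosomal proteins, integrins and laminins, and oxidative phosphorylation spread widely within shControl.

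The same genes were compared directly with cells that had received the other hairpins. Against shLINE_Orf1 edgeR called 0 genes (0%), with 1730 genes at an unadjusted p under 0.05 (11.4%), 132 called by DESeq2 and 837 by limma-voom. The smallest adjusted p was 0.060, shared by 10 genes. Cryab was among them, at 60.7 ± 8.3 CPM in shLINE_Orf1 and 38.4 ± 2.1 CPM in shLINE_Orf2 (-0.66 ± 0.11), and Acss2, at 93.5 ± 5.0 and 137 ± 19 CPM (0.55 ± 0.10). Pqlc3, Dmrtb1 and Serpinb1a stood at -0.82 ± 0.16, -0.53 ± 0.11 and -0.88 ± 0.21 (adjusted p = 0.13, 0.13 and 0.18). Gm15280 was at 2.33 ± 0.92 CPM in shLINE_Orf1 and 2.39 ± 0.27 CPM in shLINE_Orf2, a difference of 0.04 ± 0.30. Mfge8 (-0.01 ± 0.08), Desi1 (0.06 ± 0.09) and Hbs1l (0.06 ± 0.09) had differences no larger than their errors. Of the shLINE_Orf1 libraries, replicate 1 stands apart from all others, at 75.9 on the first principal component.

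Against shLINE_MdV_I 17 genes changed (0.112% of those tested), 2 higher (0.0132%) and 15 lower (0.099%) in shLINE_Orf2, with 826 at an unadjusted p under 0.05 (5.45%). Gm15280 was the only one of the 29 genes that was also called here, at 0.35 ± 0.09 CPM in shLINE_MdV_I (2.78 ± 0.35, adjusted p = 0.0040). Degs1, which makes ceramide from dihydroceramide, was at 118 ± 3.1 CPM in shLINE_MdV_I and 179 ± 7.4 CPM in shLINE_Orf2 (0.60 ± 0.08). Genes that were lower in shLINE_Orf2 include the matrix protein Thbs2 (3.23 ± 0.45 against 0.69 ± 0.18 CPM, -2.22 ± 0.26), the protease Prss23 (-0.73 ± 0.09), and Scg3 and Cplx1 of regulated secretion (-0.67 ± 0.09 and -0.80 ± 0.12). Degs1, Thbs2, Prss23, Scg3 and Cplx1 were not called against shControl.

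The 2 histones lay lower still with shLINE_MdV_I: Hist1h1c was at 39.6 ± 4.0 CPM there against 56.3 ± 3.5 CPM with shLINE_Orf2 (0.51 ± 0.17, adjusted p = 0.49), and Hist1h2bc at 63.5 ± 5.5 against 108 ± 8.3 CPM (0.76 ± 0.20, adjusted p = 0.24). P4ha2 and Banp stood at 1.16 ± 0.31 (adjusted p = 0.27) and 0.47 ± 0.12 (adjusted p = 0.24). Mavs (0.08 ± 0.13), Desi1 (0.03 ± 0.09), Rab3b (-0.04 ± 0.09), Ass1 (-0.04 ± 0.22) and Mfge8 (-0.02 ± 0.08) had differences within their errors between these 2 hairpins. These contrasts share the shLINE_Orf2 libraries with the comparison against shControl and are not independent of it.

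**Figure D5:**
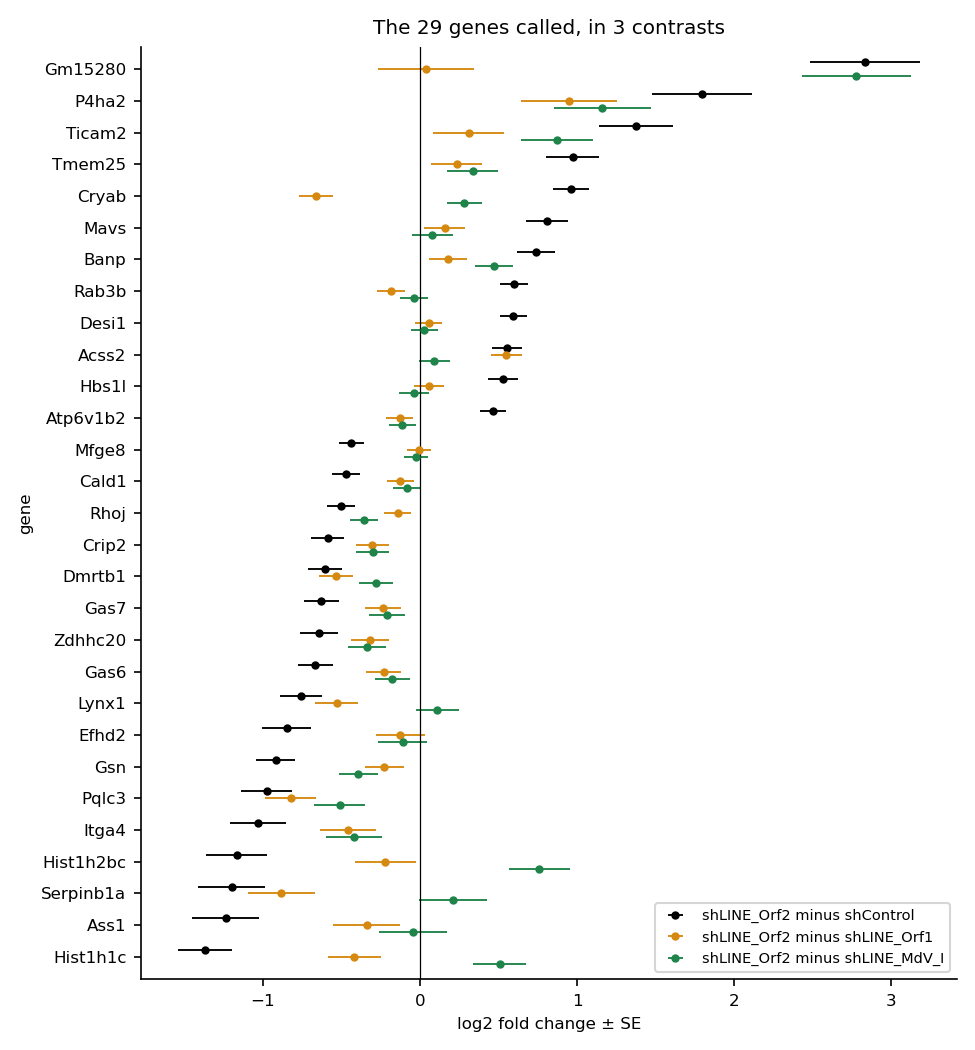
Log2 fold change ± SE of the 29 genes called, for shLINE_Orf2 minus shControl (black), minus shLINE_Orf1 (orange) and minus shLINE_MdV_I (green). The black points lie at least 0.44 from 0, many orange and green points lie near 0, and Gm15280 is the only gene called in a second contrast, that with shLINE_MdV_I.

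Just outside the threshold, in order of p, came the zinc finger gene Zcchc18 (0.48 ± 0.09, adjusted p = 0.054), Gpbp1l1 (0.67 ± 0.13) and the chemokine receptor Ackr3 (1.03 ± 0.20, adjusted p = 0.054). Ackr3 stood at 1.29, 1.86 and 2.25 CPM in shControl and 3.50, 3.56 and 3.99 CPM in shLINE_Orf2. Gatm, the first enzyme of creatine synthesis, stood at 255, 237 and 227 CPM against 325, 321 and 313 CPM (0.41 ± 0.09, adjusted p = 0.081). Lower values were found for Tex15, a gene of germ cells (-1.40 ± 0.28, adjusted p = 0.064), for Gpd1, a glycerol phosphate dehydrogenase (34.8, 33.4 and 31.8 against 22.4, 22.1 and 23.4 CPM, -0.56 ± 0.11), and for the matrix protein gene Sparcl1 (479, 396 and 413 against 329, 292 and 291 CPM, -0.50 ± 0.11). In these 3 genes, too, no library of one group reached the other, as in 5.11% of all genes downward. They were picked by p on these same libraries, so this is no separate support.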

How the data were processed

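The deposited table gives an expected count for each transcript in each library, not normalized. The submitters' processing notes name RSEM, cutadapt and mm10; their versions and settings, and the authors' annotation, were not given in the sources used here. Among the 111462 transcripts, 110203 matched GENCODE M21 (GRCm38) by ID without version; the rest, 0.583% to 0.637% of counts, and 1 blank row were left out. Counts were summed to genes and rounded. The authors' own mixed-model table was not used.

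Genes were filtered with filterByExpr (minimum count 10), scaled with TMM and fitted with edgeR 4.0.16 (quasi-likelihood, robust) in R 4.3.3, with 5 groups and 15 libraries in one model and 10 residual degrees of freedom; p-values were adjusted over 15147 genes. The SE is the log2 fold change divided by the root of F. CPM uses TMM-scaled sizes. The fit was tested on simulated counts. Alternatives were RLE or no scaling, no filter or 50 counts in 3 libraries, DESeq2 1.42.0, limma-voom (limma 3.58.1), compared groups only, replicate number as block, a length trend as offset, and libraries left out.

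Described are the genes called (1 is left out of the text) and, where a statement rests on them, genes among the next 15 by p, the 3 lowest p in each of 30 gene lists, the 3 highest genes in each of 8 marker lists, and up to 5 per direction in each direct contrast; others named were chosen after their values were seen. The members and lists were chosen with earlier results of these data known. Promoters are from RefSeq (GRCm38.p6), 250 bases upstream; 20 of the 29 genes matched. Similar transcripts were found with blastn 2.17.0.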

Additional observations from a re-analysis of the deposited data

How the results depend on the processing

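Against shControl 29 genes were called. The count was 25 to 33 with RLE or no scaling, no filter or a filter of 50 counts. It was 176 with DESeq2, 383 with limma-voom, 4 with only the compared groups and 68 with a length trend as offset. It was 272 without the 2 libraries that stand apart, which these data themselves single out. It was 119 without shLINE_Orf1 replicate 1 alone (chosen after seeing the data), and 3 to 12 without 1 library of either group. Against shLINE_Orf1 0 genes were called. The count was 11 with no filter, 132 with DESeq2, 837 with limma-voom, 4 with the length trend, 24 without the 2 libraries, and 0 to 5 without 1 library. Against shLINE_MdV_I 17 genes were called. The count was 119 with DESeq2, 515 with limma-voom, 198 with only the compared groups, 38 with the length trend, 174 without the 2 libraries, 73 without shLINE_Orf1 replicate 1 alone, and 4 to 12 without 1 library. With the replicate number as a block the counts were 4, 0 and 11. Same-numbered libraries of shLINE_Orf2 and shControl did not deviate together (r = 0.00, -0.08 and -0.05). With 3 libraries per group these values cannot exclude a pairing by number. The cause of these shifts was not tested. Among the genes named by rule and the list medians larger than the SD between libraries, the direction turned for mt-Nd3 (0.066 with limma-voom, 0.093 without the 2 libraries, and -0.53 to 0.092 without 1 library, the positive value being that without shControl replicate 2), for the median of the integrated stress response list (-0.0024 with limma-voom) and for that of the microglia list (-0.61 with at least 50 counts); no gene called turned under any alternative run. Over the members tested in each setting, the median changed sign under at least 1 alternative in 11 of the 30 pathway lists, all with a median within 0.1 of 0, and in 6 of the 8 marker lists. Depth limits Gm15280 most among the genes called, with a mean of 15.5 counts per library in shControl.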
